A study of Homo sapiens with 8 samples.

Results

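The genes described are 9 genes of prostaglandin synthesis and signalling: PLA2G4A, PTGS1, PTGS2, PTGES, PTGES2, PTGES3, PTGER2, PTGER4 and HPGD. Every gene probe of the array that carries one of these names was taken, which gave 10 of 58201 gene probes and 9 of 43317 gene names. PTGS1 had 2 probes and every other gene had 1. The set was chosen by gene name, but on earlier results of these arrays, namely the log2 differences between the mimics and their control, so the p-values below describe a fit across all genes and are not independent support for the choice.

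The cells were SAS cells, an established line from a squamous carcinoma of the tongue, in the GFP-expressing form that the study uses as its control line. Cells were transfected with a 25 nM mimic of 1 of 3 microRNAs (miR-210-3p, miR-874-3p, miR-629-3p) or with a negative control microRNA (NC), and the study asked which transcripts each of these microRNAs changed. Each of the 4 groups had 2 arrays, and RNA was taken at 48 h according to the sample labels, whereas the study's methods give a shorter interval. All cells were grown in medium with puromycin, and all 4 groups shared the parental line and the transfection. Nothing in the labels says that the 2 arrays of a group came from separate cultures, so the p-values measure only the spread between these samples, which may be technical.

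Cytosolic phospholipase A2 releases arachidonic acid from membranes, and the cyclooxygenases turn it into prostaglandin H2. Terminal synthases make prostaglandin E2 from it, which leaves the cell, acts on G protein-coupled EP receptors and is taken up again and oxidised to an inactive form. In squamous epithelium and its carcinomas, cyclooxygenase-2 is the inducible enzyme of the route and is known for its response to growth factors and inflammatory cytokines.

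The mimics carry the mature sequences below, shown because the seed, bases 2 to 8 from the 5′ end and set in capitals, is the part of a microRNA that pairs with its targets. The sequences are from RefSeq (GRCh38.p14). The genomic positions are chr15:70079387-70079408 on the minus strand for miR-629-3p, chr11:568112-568133 on the minus strand for miR-210-3p and chr5:137647582-137647603 on the minus strand for miR-874-3p.
miR-629-3p: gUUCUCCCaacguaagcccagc
miR-210-3p: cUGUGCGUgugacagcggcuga
miR-874-3p: cUGCCCUGgcccgagggaccga
The 3 seeds differ from each other. The letters that pair with bases 2 to 8 of miR-629-3p, GGGAGAA, stood in 435 of the 58201 gene probes (0.747%) and in 0 of the 10 probes of the prostaglandin genes. The corresponding letters for miR-210-3p (ACGCACA, 0.131% of gene probes) and miR-874-3p (CAGGGCA, 0.387%) were also in 0 of the 10. A probe covers a small part of its transcript, so these counts say only which letters lie in the probes.

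Values are log2 processed signals relative to the 75th percentile of the gene probes of the same array, so that 0 is the level of that percentile, and a difference is on the log2 scale. Between 41.8% and 49.8% of the gene probes were well above background on an array, with the higher shares on the miR-629-3p arrays. All 8 arrays lay on 1 slide and in 1 scan, of which one row held miR-210-3p and miR-629-3p and the other row held NC and miR-874-3p. For miR-210-3p and for miR-629-3p, slide row and group therefore cannot be told apart in the comparison with NC, whereas miR-874-3p against NC and miR-629-3p against miR-210-3p lay within a row. Probes not well above background on any array (22302 probes) read lower than with NC by a median of 0.70 on the arrays of miR-629-3p, so the differences of dim genes are given as bounds. An adjusted p printed beside a bound belongs to the fitted difference of the measured values and does not test the bound.

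Of the squamous markers, 7 of 8 were well above background on every array (KRT5, KRT14, KRT6A, KRT17, TP63, SFN and CDH1) and KRT16 on 6 arrays. Among 5 fibroblast markers, PDGFRB was well above background on all 8 arrays and COL1A1 on 6, while COL1A2, COL3A1 and DCN were detected on none. COL1A1 was higher on the miR-210-3p arrays (-1.64 and 0.51) than on the NC arrays (-3.58 and -3.42). Of 4 leukocyte markers, PTPRC and CD14 were well above background on all arrays, and of 4 endothelial markers VWF and CDH5 were. The summed level of the endothelial list was 1.34 and 1.45 with miR-629-3p, whereas the other 6 arrays ran from 0.35 to 0.82. VWF was the brightest of the list and read at least 0.96 on the miR-629-3p arrays, against -0.26 to 0.28 on the other 6. PECAM1 was also highest with miR-629-3p, and CDH5 overlapped with the other arrays. KDR went the other way, at -5.68 and -5.51 with miR-629-3p, below the other 6. PECAM1 and KDR were each well above background on 2 arrays. The sum is therefore not a rise of all 4 genes. The part of these transcripts in the results for miR-629-3p was not tested.

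With miR-629-3p, 5 genes of the route were higher than with NC: PLA2G4A, PTGS1, PTGS2, PTGES and PTGER4. These run from the release of arachidonic acid through both cyclooxygenases and the inducible prostaglandin E2 synthase to an EP receptor. PLA2G4A and PTGS2 were detected in this group alone. No gene of the set was called higher or lower against NC with either of the other mimics. PTGER4, however, differed from NC by 0.57 with miR-210-3p, beside 0.69 with miR-629-3p. Neither PTGER4 nor PTGES was called between miR-629-3p and miR-210-3p. The terminal synthases PTGES2 and PTGES3 differed little from NC with miR-629-3p, and HPGD, which inactivates prostaglandin E2, was not detected on any array.

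A gene was called at a Benjamini-Hochberg adjusted p under 0.05 from limma over 21283 genes. By this rule 17.3% of all genes were called in either direction for miR-629-3p against NC, and 11.3% were called higher. Of the 9 genes, 8 could be tested. PLA2G4A and PTGS2 passed the filter on dim probes only through the miR-629-3p arrays, where they were high, and PTGER2 only through the miR-210-3p arrays, so the count of 5 of 8 is a description. Among the 5 genes measured on all 8 arrays (PTGS1, PTGES, PTGES2, PTGES3 and PTGER4), 3 were called higher, while 11.3% of the 17401 genes measured on all 8 arrays were. These genes too belong to a set chosen on earlier results of these arrays, so this count is also a description. The median difference of the 8 genes from NC was 0.64 with miR-629-3p, or 0.54 with dim genes at their bound, beside 0.07 for all genes tested.

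**Figure D1:**
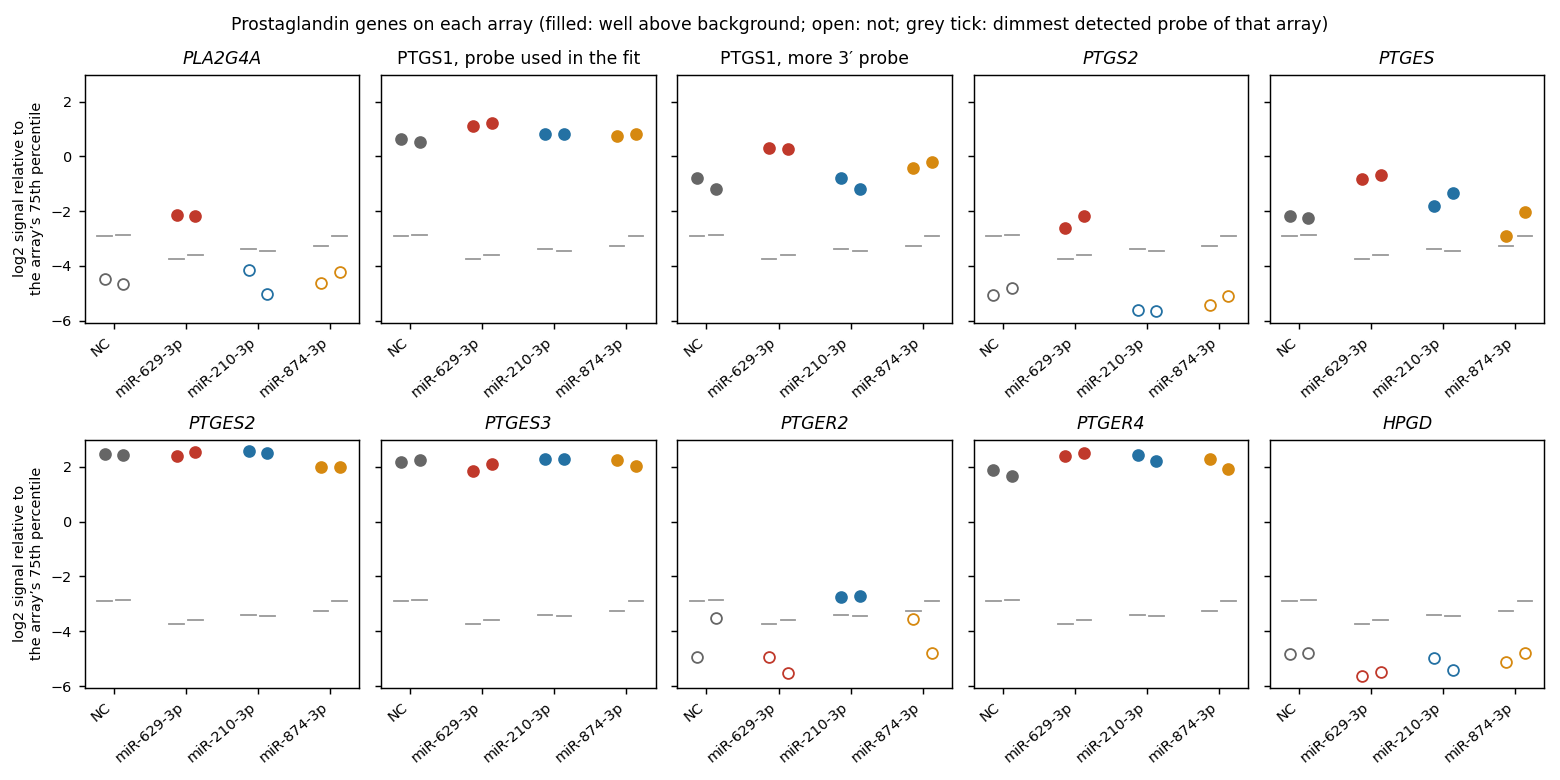
Log2 signal relative to the 75th percentile of the array (vertical axis) of the 10 probes of the prostaglandin genes, with 1 point for each of the 2 arrays of each group. Filled points were well above background, open points were not, and each grey tick marks the dimmest detected probe of that array. PLA2G4A and PTGS2 are filled only for miR-629-3p and PTGER2 only for miR-210-3p.

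PLA2G4A encodes cytosolic phospholipase A2, the enzyme that frees arachidonic acid. Its level on the miR-629-3p arrays was -2.15 and -2.18, and with NC it was -4.47 and -4.66. It was -4.62 and -4.23 with miR-874-3p and -4.13 and -5.02 with miR-210-3p. The miR-629-3p arrays were thus above all 6 others, none of which was well above background. The fitted difference from NC was 2.41 (limma adjusted p = 0.00916). With the NC level set at the dimmest detected signal of those arrays, the level with miR-629-3p was at least 1.65-fold that with NC. Against miR-210-3p it was at least 2.39-fold (limma adjusted p = 0.00692) and against miR-874-3p at least 1.89-fold (limma adjusted p = 0.00959). Without miR-629-3p array 1 the adjusted p against NC was 0.064, and without array 2 it was 0.0585.

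The PLA2G4A probe (hg19, chr1:186957652-186957711) was printed as 10 spots on each array, which gives a measure of the precision within an array. On both miR-629-3p arrays, 10 of 10 spots were well above background, with values from -2.38 to -1.91 on the first and from -2.37 to -1.96 on the second. On the other 6 arrays, 0 or 1 of the 10 spots were, and the 1 spot, on miR-874-3p array 1, was an outlier that was left out. Spots of 1 array are not replicates of the condition. With outlier spots left out, no spot of the other 6 arrays reached the lowest spot of the miR-629-3p arrays.

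**Figure D2:**
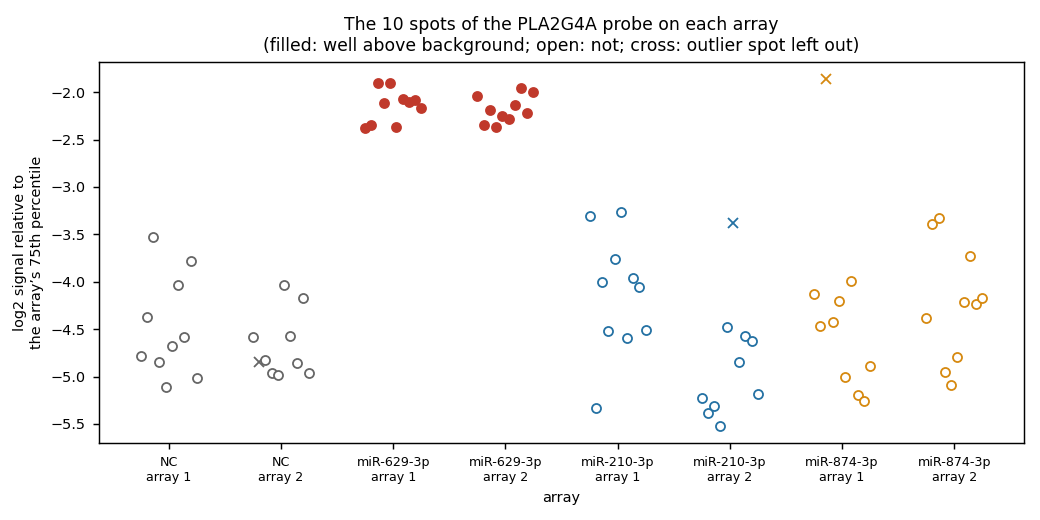
Log2 signal relative to the 75th percentile of the array (vertical axis) of each of the 10 PLA2G4A spots on the 8 arrays (horizontal axis). Filled points were well above background, open points were not, and crosses are outlier spots left out of the values. The spots of the miR-629-3p arrays lie between -2.38 and -1.91 and are the filled ones.

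PTGS2 encodes cyclooxygenase-2, the inducible enzyme of the cyclooxygenase step. Its probe (hg19, chr1:186641469-186641528) read -2.62 and -2.16 with miR-629-3p, which are processed signals of 12.4 and 16.5. The NC arrays read -5.04 and -4.80, or processed signals of 2.40 and 2.61. The miR-210-3p arrays read -5.61 and -5.65 and the miR-874-3p arrays -5.42 and -5.10. Both miR-629-3p arrays were above all others, and the other 3 groups were not well above background, so their order carries no information on the transcript.

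PTGS2 was at least 1.41-fold higher with miR-629-3p than with NC (limma adjusted p = 0.0036), at least 2.04-fold higher than with miR-210-3p (limma adjusted p = 0.00168) and at least 1.61-fold higher than with miR-874-3p (limma adjusted p = 0.00245). It was the only gene of the set that was called against NC without any 1 of the 8 arrays. The fitted difference from NC, 2.53 (SE 0.19, 2 arrays a group), depended on the treatment of dim signals. It was 0.49 (limma adjusted p = 0.11) when values were floored at the dimmest detected signal of each array, and 0.32 (limma adjusted p = 0.0131) after another background correction, normexp. For PLA2G4A the fitted difference of 2.41 was 0.72 with the floor (limma adjusted p = 0.0149) and 0.30 after normexp.

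PTGS2 and PLA2G4A are neighbours on chromosome 1, on opposite strands and with their starts facing each other. In the RefSeq order 1 gene lies between them, the antisense RNA PACERR, for which no probe name was matched. The next tested gene beyond PTGS2 was ODR4 (C1orf27 on the array), with a difference from NC of 0.37 (limma adjusted p = 0.0597) with miR-629-3p. The next beyond PLA2G4A, LINC01036, differed by 0.27 (limma adjusted p = 0.843).

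The bases just before the transcription starts of these neighbours are shown because both genes were detected with miR-629-3p alone. Each run is 250 bases 5′ to 3′ on the gene's strand from RefSeq (GRCh38.p14), at chr1:186680424-186680673 on the minus strand for PTGS2 and chr1:186828699-186828948 on the plus strand for PLA2G4A. Capitals mark matches to the motifs searched.
PTGS2: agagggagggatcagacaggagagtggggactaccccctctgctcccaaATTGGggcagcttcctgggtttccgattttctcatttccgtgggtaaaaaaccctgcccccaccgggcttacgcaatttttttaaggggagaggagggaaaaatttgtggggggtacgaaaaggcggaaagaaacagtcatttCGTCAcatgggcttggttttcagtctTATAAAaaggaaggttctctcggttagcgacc
PLA2G4A: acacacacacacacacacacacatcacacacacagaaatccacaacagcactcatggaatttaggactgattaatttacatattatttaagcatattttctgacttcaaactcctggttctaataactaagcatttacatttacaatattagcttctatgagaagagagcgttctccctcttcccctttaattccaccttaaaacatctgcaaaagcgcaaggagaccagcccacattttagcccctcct
The motifs were searched on both strands. They were the TATA box spelled TATAAA, the core of the cAMP response element spelled CGTCA, and the CCAAT box spelled by its name. The AP-1 site was TGACTCA and the GC box was GGGCGG. The E-box was CACGTG. The NF-kB site was searched as GGG, A or G, any base, any base, C or T, C or T, and CC. Sites spelled otherwise than these motifs were not counted. The PTGS2 window held TATAAA at bases -32 to -27 before the start, CGTCA at -58 to -54, and CCAAT on the other strand at -201 to -197. Of 35116 such windows of all genes, 10.7% held TATAAA, 21.2% CGTCA and 32.0% CCAAT. AP-1 sites were in 4.20% of them, GC boxes in 42.6%, E-boxes in 6.34% and NF-kB sites in 9.96%. The PLA2G4A window held none of the 7, and its GC content was 38.8% against 50.4% for PTGS2 and a median of 58.0% over all windows. These matches describe letters and not binding.

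PTGS1 encodes cyclooxygenase-1, which most tissues express without induction. The brighter of its probes (hg19, chr9:125155052-125155111) read 1.13 and 1.20 with miR-629-3p and 0.62 and 0.54 with NC. It read 0.75 and 0.82 with miR-874-3p and 0.83 and 0.82 with miR-210-3p. The miR-629-3p arrays were the highest and the NC arrays the lowest of the 8. The difference from NC was 0.59 (SE 0.07, 2 arrays a group, limma adjusted p = 0.00944), which is a ratio of 1.50. The miR-629-3p arrays were also above those of miR-210-3p by 0.34 (limma adjusted p = 0.0281) and of miR-874-3p by 0.38 (limma adjusted p = 0.024). Without miR-629-3p array 1 or array 2, the adjusted p against NC was 0.057 or 0.0635.

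The other PTGS1 probe lies further 3′ (hg19, chr9:125157536-125157595) and was dimmer but well above background on all arrays. It read 0.31 and 0.25 with miR-629-3p, -0.44 and -0.22 with miR-874-3p, and -0.79 and -1.19 both with miR-210-3p and with NC. In a limma fit of every probe on its own, its difference from NC was 1.27 with miR-629-3p (adjusted p = 0.0145), 0.66 with miR-874-3p (adjusted p = 0.205) and -0.00041 with miR-210-3p. The corresponding differences of the first probe were 0.59, 0.21 and 0.25. Against NC both probes were therefore higher with miR-629-3p, by an amount that depended on the probe. In the same fit the more 3′ probe was higher with miR-629-3p than with miR-210-3p by 1.27 (limma adjusted p = 0.0117). Its difference from miR-874-3p, 0.61, was not called (limma adjusted p = 0.0862). Whether the probes differed from each other was not tested.

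PTGES encodes microsomal prostaglandin E synthase-1, the inducible enzyme that makes prostaglandin E2 from the cyclooxygenase product. Its probe (hg19, chr9:132501510-132501569) read -0.84 and -0.66 with miR-629-3p and -2.17 and -2.23 with NC. It read -2.91 and -2.03 with miR-874-3p and -1.82 and -1.33 with miR-210-3p. The miR-629-3p arrays were the highest of the 8, and those of NC lay between the 2 arrays of miR-874-3p. PTGES was 2.74-fold higher with miR-629-3p than with NC, a difference of 1.45 (SE 0.31, 2 arrays a group, limma adjusted p = 0.0316). It was higher than with miR-874-3p by 1.72 (limma adjusted p = 0.0201), and the difference from miR-210-3p was 0.82 (limma adjusted p = 0.115). The call against NC was lost without any 1 of the miR-629-3p, miR-210-3p or NC arrays, with adjusted p from 0.0537 to 0.137. After normexp the difference from NC was 0.53.

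PTGES2 encodes a membrane-associated prostaglandin E synthase that cells make constitutively. Its probe (hg19, chr9:130886007-130886066) read 1.997 and 1.998 with miR-874-3p against 2.40 to 2.58 on the other 6 arrays, so that the miR-874-3p arrays were below all others. The difference from NC with miR-874-3p was -0.45 (SE 0.08, 2 arrays a group, limma adjusted p = 0.0915), which was not called. Against miR-874-3p, PTGES2 was higher with miR-629-3p by 0.47 (limma adjusted p = 0.0175) and with miR-210-3p by 0.54 (limma adjusted p = 0.019). With miR-629-3p it differed from NC by 0.02, with a 95% interval from -0.18 to 0.22. Its antisense partner PTGES2-AS1 was well above background on 3 arrays and was between -3.91 and -2.61 on the 8.

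PTGES3 encodes p23, a cochaperone of HSP90 that also has cytosolic prostaglandin E synthase activity. Its level lay between 1.85 and 2.29 on the 8 arrays, with 1.85 and 2.10 for miR-629-3p, 2.02 and 2.25 for miR-874-3p, 2.18 and 2.25 for NC and 2.27 and 2.29 for miR-210-3p. The miR-210-3p arrays were above the other 6 and the miR-629-3p arrays below those of NC, while the miR-874-3p arrays overlapped with both NC and miR-629-3p. The difference of -0.24 from NC with miR-629-3p (SE 0.12, limma adjusted p = 0.226) was not called.

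The EP receptors differed from each other in level and in pattern. PTGER4 encodes EP4, which raises cAMP. Its probe (hg19, chr5:40693563-40693622) read 2.28 and 1.93 with miR-874-3p, 2.45 and 2.23 with miR-210-3p, 2.42 and 2.50 with miR-629-3p and 1.88 and 1.66 with NC. The arrays of all 3 mimics were above both NC arrays, though a lack of overlap was common among all genes. The difference from NC was 0.69 with miR-629-3p (SE 0.15, 2 arrays a group, limma adjusted p = 0.0359), 0.57 with miR-210-3p (limma adjusted p = 0.0838) and 0.33 with miR-874-3p (limma adjusted p = 0.359). The difference between miR-629-3p and miR-210-3p was 0.12, with a 95% interval from -0.26 to 0.50. The call for miR-629-3p was lost without any 1 of the miR-629-3p, miR-210-3p or NC arrays, with adjusted p from 0.0622 to 0.15.

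PTGER2 encodes EP2, which also raises cAMP. Its probe (hg19, chr14:52794430-52794489) was well above background on the miR-210-3p arrays, at -2.75 and -2.71, and on no other. It read -4.94 and -3.53 with NC, -4.92 and -5.53 with miR-629-3p and -3.57 and -4.80 with miR-874-3p, so that both miR-210-3p arrays were above the other 6. The level with miR-210-3p was at least 1.92-fold that with miR-629-3p (limma adjusted p = 0.035). It was at least 1.11-fold that with NC (limma adjusted p = 0.174) and at least 1.27-fold that with miR-874-3p (limma adjusted p = 0.169), and neither was called. With values floored, PTGER2 was called lower for miR-629-3p against NC (-0.79, limma adjusted p = 0.0136), but all 4 of those arrays were below the floor, so this is a difference between the floors.

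HPGD encodes 15-hydroxyprostaglandin dehydrogenase, which begins the breakdown of prostaglandin E2. Its probe (hg19, chr4:175411686-175411745) gave processed signals from 1.54 to 2.76 on the 8 arrays and was not well above background on any of them. It was not tested, and no order among the groups was read from it.

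**Figure D3:**
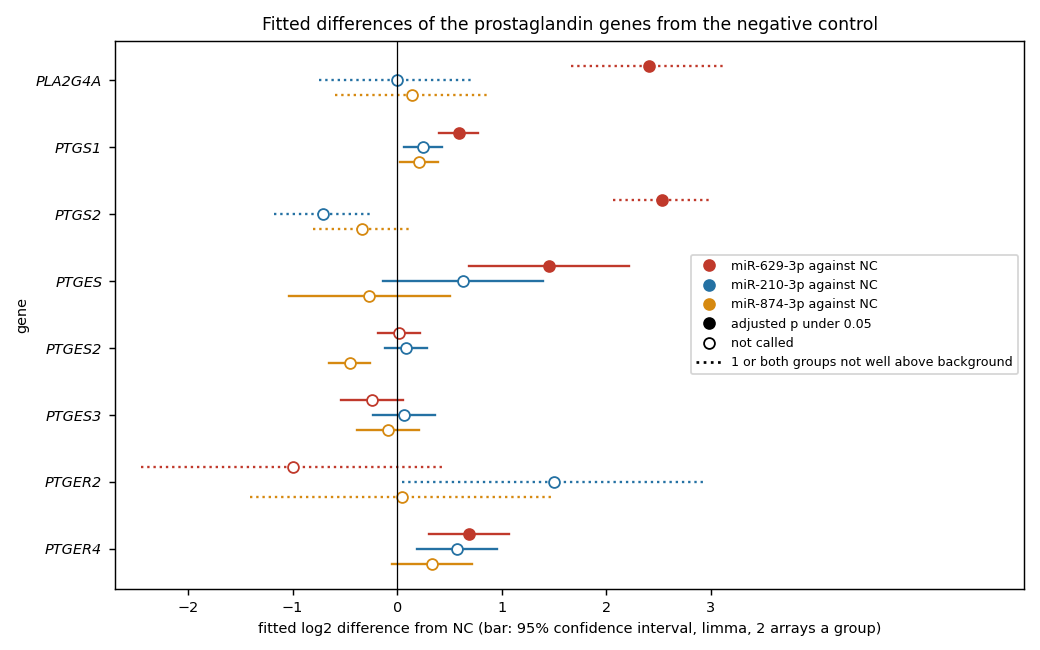
Fitted log2 difference from NC (horizontal axis) of the 8 tested prostaglandin genes for each mimic, with 95% confidence intervals from limma. Filled points had an adjusted p under 0.05, and dotted bars mark differences in which 1 or both groups were not well above background. The 5 filled points, PLA2G4A, PTGS1, PTGS2, PTGES and PTGER4, are all for miR-629-3p.

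With miR-210-3p against NC, limma called 0 of the 8 genes, beside 6.75% of all genes. At an unadjusted p under 0.05, 4 of the 8 passed, beside 27.1% of all genes. The t-test of the study's methods gave 0 of the 8 after adjustment, beside 3 of 21283 genes. Before adjustment it gave 2, beside 22.8% of all genes. With miR-874-3p against NC, limma called 0 of 8, beside 0.413% of all genes, with 2 of 8 at an unadjusted p under 0.05, beside 16.1%. There the methods' t-test called no gene of the array after adjustment, and 1 of the 8 before it, beside 8.92% of all genes. The median difference of the 8 genes was -0.02 with miR-874-3p, beside -0.0030 for all genes, and 0.17 with miR-210-3p, beside 0.09. The 3 comparisons share the NC arrays.

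Between mimics, 4 genes of the set were called for miR-629-3p against miR-210-3p (PLA2G4A, PTGS1 and PTGS2 higher, PTGER2 lower), beside 21.7% of all genes. For miR-629-3p against miR-874-3p, 5 were called, all higher (PLA2G4A, PTGS1, PTGS2, PTGES and PTGES2), beside 17.3% of all genes. For miR-210-3p against miR-874-3p, PTGES2 was called, beside 11.1% of all genes. An F test over the 4 groups called PLA2G4A, PTGS1, PTGS2, PTGES and PTGES2, beside 25.7% of all genes.

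The study's own threshold was an unadjusted p under 0.05 with at least a 2-fold change. Applied to the limma fit for miR-629-3p against NC, it left PLA2G4A, PTGS2 and PTGES, beside 5.50% of all genes. For miR-210-3p it left PTGER2, beside 3.27%, and for miR-874-3p none of the 8, beside 2.03%.

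Other genes of the route were taken from lists of 92 names on the array, of which 73 could be tested. With miR-629-3p against NC, 11 were called higher and 10 lower, or 28.8% of the list, beside 17.3% of all genes. The lists were chosen with earlier results of these data known. AKR1C1, 1 of those higher, passed the filter on dim probes only through the miR-629-3p arrays, so this share is a description. With miR-210-3p 3 were higher and 2 lower (6.85%), beside 6.75% of all genes. With miR-874-3p 1 was higher and 1 lower (2.74%), beside 0.413% of all genes. The same shares of all genes stand beside the counts by list below. Without miR-629-3p array 1 or array 2, the count for miR-629-3p was 1, IL1B. Of the 28 calls with the 3 mimics, this was the 1 that held without any 1 of the 8 arrays.

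Among the other phospholipases, 1 of 7 tested was called with miR-629-3p, beside 17.3% of all genes. PLA2G12A, a secreted phospholipase A2, had a difference of -0.66 (limma adjusted p = 0.03), while its other probe had -0.08. No other phospholipase was called with any mimic.

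Of the 9 tested terminal synthases and ketoreductases, 4 were called with miR-629-3p, beside 17.3% of all genes. AKR1B1, an aldo-keto reductase with prostaglandin F synthase activity, read 6.86 and 6.65 with miR-629-3p and 5.42 and 5.23 with NC, and the other 4 arrays lay between 5.00 and 5.53. It was 2.70-fold higher than with NC (limma adjusted p = 0.00913). AKR1C3, which also makes prostaglandin F, was higher by 0.95 (limma adjusted p = 0.0463). AKR1C1 was detected with miR-629-3p alone, at -2.23 and -2.43, and was at least 1.47-fold higher than with NC (limma adjusted p = 0.0304). AKR1C genes are near-identical copies, so their separate values are uncertain. CBR3, a carbonyl reductase, was lower by a difference of -0.76 (limma adjusted p = 0.0237). With miR-210-3p FAM213B, a prostamide and prostaglandin F synthase, had -0.38 (limma adjusted p = 0.0482).

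The prostaglandin D synthase HPGDS, singled out after its values were seen, was detected only with miR-874-3p. It read -0.36 and -2.42 there and between -5.78 and -4.94 on the other 6 arrays. The level was at least 2.82-fold that with NC, but the arrays of the group were far apart and limma did not call it (adjusted p = 0.0889).

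Of the 5 genes of transport and inactivation, 2 were called lower with miR-629-3p, beside 1274 of all 21283 genes, and none was called higher. SLCO2A1 encodes the transporter that takes prostaglandins back into cells for breakdown. Its NC arrays read 0.99 and 1.50, those of miR-629-3p -0.46 and -0.65, those of miR-210-3p 2.30 and 2.21, and those of miR-874-3p 1.40 and 0.79. The miR-629-3p arrays were below and the miR-210-3p arrays above the other 4. The level with miR-629-3p was 3.47-fold lower than with NC, a difference of -1.80 (SE 0.25, 2 arrays a group, limma adjusted p = 0.0119), and with miR-210-3p the difference was 1.01 (limma adjusted p = 0.0726). Without miR-629-3p array 1, array 2 or NC array 2, the adjusted p was 0.0684, 0.0704 or 0.0514. ZADH2, a prostaglandin reductase, had a difference of -0.83 with miR-629-3p (limma adjusted p = 0.0117) and -0.76 by its other probe in the fit of every probe. The study put ZADH2 on a list of candidate targets of miR-629-3p chosen with these samples, so its direction is not independent evidence. PTGR1, PTGR2 and ABCC4 were not called with any mimic.

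Of 8 other receptor genes, 3 could be tested, and none was called with miR-629-3p or miR-210-3p. PTGFRN, a negative regulator of the prostaglandin F receptor, read 2.43 and 2.45 with miR-874-3p and between 3.23 and 3.52 on the other 6 arrays. Its difference from NC with miR-874-3p was -0.83 (limma adjusted p = 0.0384). The call was lost without any 1 of the 8 arrays, with adjusted p from 0.0594 to 0.11. PTGER3, which encodes EP3, had a difference of -0.96 with miR-629-3p (limma adjusted p = 0.0726).

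Among 13 tested enzymes of other arachidonate routes, ALOXE3, an epidermal lipoxygenase, was higher with miR-629-3p by 0.93 (limma adjusted p = 0.0369). ACSL4, which couples arachidonic acid to coenzyme A, had -0.73 (limma adjusted p = 0.0425), and LTC4S, the leukotriene C4 synthase, had -0.37 (limma adjusted p = 0.0492). With miR-210-3p LTC4S had -0.51 (limma adjusted p = 0.0403). MGLL, which releases arachidonic acid from an endocannabinoid, read 3.62 and 3.71 with NC and 4.72 and 4.65 with miR-210-3p, a difference of 1.02 (limma adjusted p = 0.0128). Its other probe gave 0.88. The MGLL call was lost without either miR-210-3p array (adjusted p = 0.0905 and 0.0746) or NC array 1 (0.0566).

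Known inducers of PTGS2 included 4 of 10 called higher with miR-629-3p and none called lower, beside 11.3% of all genes called higher. IL1B, the cytokine interleukin-1 beta, read 7.42 and 7.35 with miR-629-3p, 6.20 and 5.997 with NC and from 6.05 to 6.36 on the other 4 arrays. It was 2.44-fold higher than with NC (limma adjusted p = 0.00351), and the call held without any 1 of the 8 arrays. IL1A, its relative interleukin-1 alpha, read 3.41 and 3.42 with miR-629-3p, 2.22 and 2.39 with NC and from 1.68 to 2.34 on the other 4. IL1A was 2.16-fold higher than with NC (limma adjusted p = 0.00863). The transcription factors CEBPB and FOS were higher by 0.46 (limma adjusted p = 0.0181) and 0.63 (limma adjusted p = 0.0489). With miR-210-3p FOS was higher by 0.77 (limma adjusted p = 0.0499). Among 13 alternative settings that left out no array, the FOS call held in 5 for miR-629-3p and in 4 for miR-210-3p. TNF, EGFR, NFKB1, RELA, CREB1 and JUN were not called with any mimic.

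Of 10 factors that bind the PTGS2 message and alter its stability, ZFP36L1, which speeds the decay of such messages, was called with miR-629-3p. It was higher by 0.59 (limma adjusted p = 0.0224) and by 0.48 by its other probe. CELF2 was higher by 0.37 with miR-210-3p (limma adjusted p = 0.0458), but its other probe differed by 0.15 (limma adjusted p = 0.698), and the mean of both probes was not called (0.26, limma adjusted p = 0.208). Among 8 tested genes that respond to cAMP, the messenger of EP2 and EP4, CREM was higher by 0.82 (limma adjusted p = 0.0346) and DUSP1 by 0.38 (limma adjusted p = 0.023) with miR-629-3p, while SIK1 had -0.40 (limma adjusted p = 0.0358). The other CREM probe differed by 0.50 (limma adjusted p = 0.0764). PDE4D was not called by its brighter probe, which had -0.58 with miR-629-3p in the fit of every probe (limma adjusted p = 0.082). Its other probe went the opposite way, by 0.71 with miR-629-3p (limma adjusted p = 0.0193) and 0.92 with miR-210-3p (limma adjusted p = 0.0196). DUSP1 was also higher with miR-874-3p, by 0.71 (limma adjusted p = 0.0345).

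PTGES3 belongs with the HSP90 cochaperones. Of 8 genes of HSP90 and its other cochaperones, 3 were called lower with miR-629-3p, beside 1274 of all 21283 genes. None was called with another mimic. FKBP4, an immunophilin of the HSP90 complex, had -0.70 (limma adjusted p = 0.0175). HSP90AB1, the constitutive HSP90, had -0.48 (limma adjusted p = 0.0384) and AHSA1, an activator of its ATPase, had -0.40 (limma adjusted p = 0.0253). In the fit of every probe, the other FKBP4 probe had -0.75 (limma adjusted p = 0.0196). The other HSP90AB1 probe had -0.50 and was not called (limma adjusted p = 0.0568). The median of the 8 was -0.35, beside -0.24 for PTGES3 itself and 0.07 for all genes tested.

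**Figure D4:**
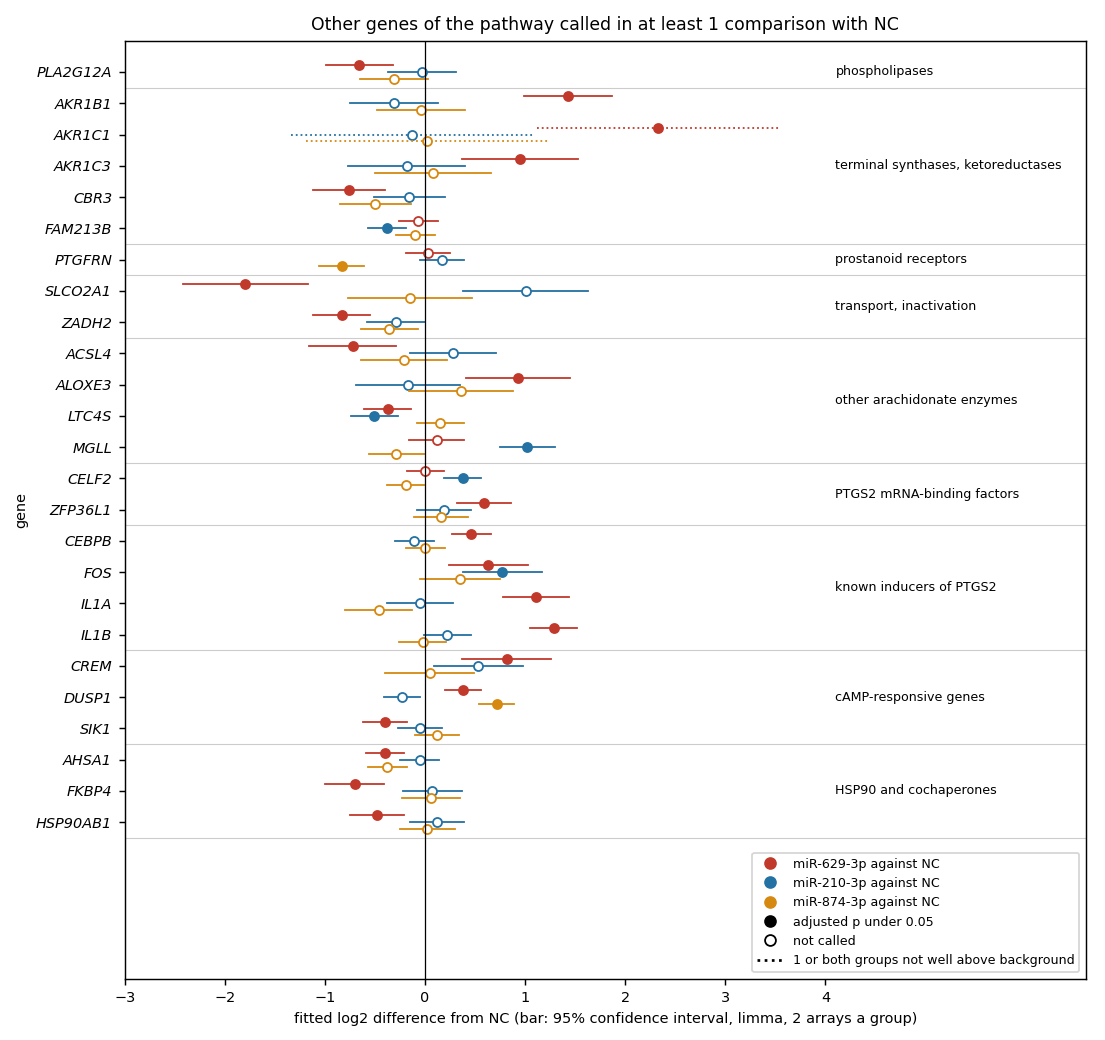
Fitted log2 difference from NC (horizontal axis) of the other genes of the route that were called for at least 1 mimic, by list, with 95% confidence intervals from limma. Filled points had an adjusted p under 0.05, and dotted bars mark differences in which 1 or both groups were not well above background. SLCO2A1 lies at -1.80 and IL1B at 1.29 for miR-629-3p.

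The genes whose levels over the 8 arrays were most like those of 3 members were found by Pearson's r of the log2 signal. Since the miR-629-3p arrays set most of the variation, a high r says little more than that a gene was high on them. For PTGS2 the nearest were LOC100505782 (r = 0.996), lnc-TMTC3-6 (0.994) and ETNPPL (0.993), each well above background on 2 arrays, and 228 genes exceeded an r of 0.95. For PLA2G4A they were SIRPB2 (0.996), COL15A1 (0.993) and RBM47 (0.993), with 211 genes over 0.95. For PTGES they were SCYL3 (0.981), ANKLE2 (0.978) and VPS41 (r = 0.975), with 66 genes over 0.95.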

How the data were processed

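RNA of SAS cells (100 ng a sample) was hybridised to Agilent SurePrint G3 Human arrays in 1 colour. Per the file headers, the deposited intensity values were made with Agilent Feature Extraction 11.5.1.1, whose processed signal is background-subtracted, with no normalization across arrays. The authors' second deposit was a table of log2 values, which matched log2 processed signal relative to the 75th percentile within 0.05 for at least 99.96% of probes on each array, so their scale and direction were settled and they served as an alternative.

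The members and lists were chosen with earlier results of these data known. Each array's log2 processed signal was taken relative to its 75th percentile over gene probes, and a probe's value was the mean of its spots without outliers (87 to 346 spots an array). A probe entered the fit if at least 1 group had it well above background on both its arrays, and each gene was read from its brightest probe. R 4.3.3 and limma 3.58.1 (lmFit, eBayes, all 8 arrays, no covariates) were used, with Benjamini-Hochberg adjustment over 21283 genes and a threshold of 0.05. The fit had 4 residual and 1.71 prior degrees of freedom. It was tested on simulated data. The number of arrays limits the precision.

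Where a group was not well above background on its arrays, its level was replaced by the dimmest detected signal of each array, which gives the bounds written as "at least". The adjusted p-values beside these bounds are those of the limma fit without this replacement. Alternatives were normexp (offset 50), quantile normalization, median centring, the authors' values, outlier spots kept, a floor, other detection filters, all probes, only the groups compared, trend and robust moderation, a replicate block, the methods' t-test and ANOVA, the methods' threshold and each array left out. Named genes were the members, called genes of the pathway lists, the nearest genes by Pearson's r and the markers. Replicate numbers did not pair the samples. Probe positions are those of the files (hg19). RefSeq sequences are of GRCh38.p14, and all 9 members matched a promoter entry. The cell assays and other arrays of the study were not analysed here.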

Additional observations from a re-analysis of the deposited data

How the results depend on the processing

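The counts of called genes of the set were sensitive to the design. After adjustment the methods' t-test called none of the 21283 genes for miR-629-3p against NC, miR-629-3p against miR-874-3p or miR-874-3p against NC. A count of 0 by it there says nothing particular to the set. For miR-629-3p against NC the count of 5 was 0 by that test and 3 at the methods' threshold. It was also 3 when only genes well above background on all 8 arrays were tested, a filter that leaves out PLA2G4A and PTGS2. It ranged from 1 to 5 with 1 array left out, where the remaining array of a group takes its spread from the other groups. With the floor the count stayed at 5, with PTGS2 lost (0.49, limma adjusted p = 0.11) and PTGER2 called lower (-0.79, limma adjusted p = 0.0136), where all arrays compared were at their floors. PTGS2 alone was called without miR-629-3p array 1 or array 2. Without a miR-210-3p or NC array, PLA2G4A, PTGS1 and PTGS2 were. Against miR-210-3p the count of 4 was 2 with no filter on detection, 1 with detection on all arrays, 2 with the replicate block, 0 by the t-test and 1 to 5 with 1 array left out. Against miR-874-3p the count of 5 was 2 with no filter, 3 with detection on all arrays, 2 with only the groups compared, 0 by the t-test, 3 at the methods' threshold and 1 to 5 with 1 array left out. PTGES2, the gene called for miR-210-3p against miR-874-3p, was lost (count 0) with no filter, only the groups compared, the replicate block, the t-test and without either miR-210-3p array (0 to 1 with 1 array left out). The F test called 2 instead of 5 with no filter, and 1 to 6 with 1 array left out. For miR-210-3p against NC the count of 0 was 1 after normexp and with trend and robust moderation (PTGER4) and 1 at the methods' threshold (PTGER2). For miR-874-3p against NC it was 1 after normexp and with trend and robust moderation (PTGES2). Both counts were 0 with any 1 array left out.

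For the other genes of the route, the count of 21 with miR-629-3p was 12 with the replicate block, 0 by the t-test, 5 at the methods' threshold and 1 to 23 with 1 array left out. With miR-210-3p the count of 5 was 8 after normexp, 3 after quantile normalization, 3 after median centring, 0 with no filter, 2 with probes averaged, 1 with only the groups compared, 9 with trend and robust moderation, 1 with the replicate block, 0 by the t-test, 2 at the methods' threshold and 0 to 12 with 1 array left out. With miR-874-3p the count of 2 was 0 with no filter, only the groups compared, the replicate block and the t-test, 5 with trend and robust moderation and 0 to 3 with 1 array left out.

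Directions turned only for differences that were not called. PLA2G4A with miR-210-3p, -0.01, became 0.026 after normexp, 0.085 with outlier spots kept and -0.45 to 0.44 with 1 array left out. PLA2G4A with miR-874-3p, 0.14, became -1.27e-05 after normexp, -0.14 after quantile normalization, -0.20 with the floor and -0.050 to 0.34 with 1 array left out. PTGER2 with miR-874-3p, 0.05, became -0.064 after quantile normalization, -0.20 with the floor and -0.66 to 0.75 with 1 array left out. PTGES2 with miR-629-3p, 0.02, became -0.019 after quantile normalization, -0.063 after median centring and -0.057 to 0.092 with 1 array left out. PTGES3 with miR-210-3p, 0.06, became -0.0035 after quantile normalization and -0.023 after median centring. With miR-874-3p and 1 array left out, PTGES3 ranged from -0.20 to 0.029 and PTGES from -0.71 to 0.18. The cause of these changes was not tested.

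No scaling moved the median of all genes by more than 0.09. Correlations between the replicate differences of the groups lay between -0.11 and 0.03, so the numbers were not taken as pairs. All arrays were on 1 slide, so the slide could not be a block. Signal over background limits PTGS2, PLA2G4A, PTGER2 and HPGD.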
